A study of Mus musculus with 6 samples.

Results

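The ferritin subunit genes Fth1, the heavy chain, and Ftl1, the light chain, were examined in RNA from the dentate gyrus (DG) and the CA1 of the adult mouse hippocampus. They were 2 of 7507 genes in the count table, and no other symbol starting with Fth or Ftl was listed. The pair was chosen by abundance, with the UMI counts of these libraries known: Fth1 stood near the top when genes were ordered by mean share of UMIs. That abundance is therefore a description here and not a result.

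The libraries came from BALI-Multiome, in which a 4-digit barcode is ligated stepwise onto cDNA and onto accessible chromatin of a tissue section. Here the first 3 digits were added over the whole section. Light patterned onto the section directed the ligation of the last digit, so that molecules from an illuminated area carry the barcode of that area. In each of 3 coronal sections, 10 µm thick and cut from fresh frozen mouse brain, the granular layer of the DG received one barcode and the CA1 another, which gave 3 DG and 3 CA1 RNA libraries. All were untreated, with no genotype or strain named. The animals were 12 weeks old by the sample labels and 8 to 12 months old by the protocol text. Nothing in the sources used here said whether the 3 sections came from separate animals, so p-values for the regions measure the spread between these sections. The illuminated areas hold every cell type of the layer, and in such bulk RNA fewer cells of a type cannot be told apart from less RNA per cell.

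Ferritin is the hollow protein shell in which cells store iron, and it is built from heavy and light chains in proportions that differ between tissues. The heavy chain carries the ferroxidase site that oxidises iron as it enters, whereas the light chain favours formation of the mineral core. In brain, oligodendrocytes are known for a high iron and ferritin content, because myelin synthesis needs iron. Translation of both mRNAs is held back in low iron by iron regulatory proteins, which bind a hairpin in the 5′ untranslated region (UTR), the iron-responsive element.

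Both genes were small, with 4 exons each. On GRCm38.p6, the assembly behind mm10, the RefSeq mRNA of Fth1 lay on chromosome 19 at chr19:9982646-9985111 on the plus strand. Its 942 bases held a 5′ UTR of 224 bases, a coding part of 549 bases and a 3′ UTR of 169 bases. The mRNA of Ftl1 lay on chromosome 7 at chr7:45457944-45459886 on the minus strand, with 970 bases, of which 255 were 5′ UTR, 552 coding and 163 3′ UTR. No other RefSeq gene overlapped either mRNA on either strand.

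A search of both mRNAs for the core of the iron-responsive element found it once in each, in exon 1 within the 5′ UTR. The search asked for the loop CAGTGN, 5 paired bases on each side of it and an unpaired C before the upper stem, on the sense strand only. The 29-base sites are shown because they are the sequence feature that the subunits share. The bulged C and the loop are in capitals. The first site lay at chr19:9982732-9982760 on the plus strand and the second at chr7:45459779-45459807 on the minus strand.
Fth1: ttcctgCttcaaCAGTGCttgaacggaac
Ftl1: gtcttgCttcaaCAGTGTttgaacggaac
The sites had the same base at 26 of 29 positions and differed by T1G, C4T and C18T, with the Fth1 base first and positions counted from the 5′ end of the printed site. In the first 150 bases of 10864 RefSeq 5′ UTRs of at least that length, 1 per gene, the motif occurred in 6 (0.0552%). These were Fth1, Ftl1, Slc40a1 (the iron exporter ferroportin), Ece2, Malt1 and Vti1b. A match is a description of the letters and was not tested for binding.

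The UMI counts of the subunits were far apart. A UMI is a short random tag that marks 1 original cDNA molecule. In the DG of sections 1, 2 and 3, Fth1 had 161, 28 and 48 UMIs, and the CA1 of these sections gave 154, 26 and 45. Ftl1 was counted 1, 1 and 3 times across the DG libraries and 1, 0 and 1 times across those of CA1. Summed over the 6 libraries, 462 UMIs of Fth1 stood against 7 of Ftl1. The heavy chain was thus present in every library with at least 26 UMIs, whereas no library held more than 3 UMIs of the light chain.

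Libraries held between 2844 and 17999 UMIs, and DG libraries were 1.29 to 1.92 times as deep as the CA1 library of their section. Counts were therefore set against the total of their library. By mean share over the 6 libraries, Fth1 took 0.959% of UMIs and ranked 4 of 7507, between Rn45s, the ribosomal RNA precursor, at 1.59% and Grin2b, an NMDA receptor subunit, at 0.691%. Its rank within a library was 4 in 4 libraries, 5 in the DG of section 3 and 7 in the DG of section 2. Ftl1 took 0.0177% and ranked 1217, next to Aplp2 at 0.0178% and 4933413L06Rik at 0.0177%, among 252 genes with a total of 7 UMIs.

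**Figure D1:**
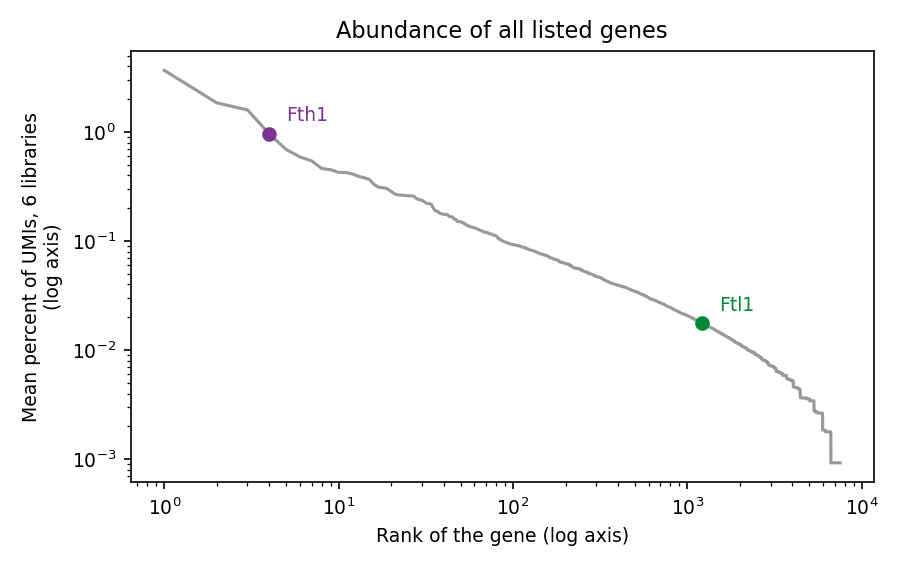
Mean percent of UMIs over the 6 libraries (log axis) against the rank of the gene (log axis) for all 7507 listed genes, shown as a line, with the ferritin subunits as points. Fth1 sat at rank 4 with 0.959% of UMIs and Ftl1 at rank 1217 with 0.0177%.

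Within a library, where depth cancels, Fth1 made up 99.4%, 96.6% and 94.1% of ferritin UMIs in the DG of sections 1 to 3. In the CA1 it made up 99.4%, 100% and 97.8%. The exact binomial 95% intervals, which cover counting error only, reached from 82.2% at their lowest bound to 100%. The mean was 96.7% ± 2.64 (SD, n = 3) in the DG and 99.1% ± 1.12 (SD, n = 3) in the CA1, and the ranges of the regions overlapped. Over all libraries the ratio of Fth1 to Ftl1 was 66 (95% interval 31.8 to 165). Per kilobase of mRNA it was 68.0, from 490.4 UMIs per kilobase for Fth1 and 7.22 for Ftl1, since the mRNAs were of nearly equal length.

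The subunits differed in how many near-identical copies of their mRNA the genome holds, which bears on what could be counted. The reads were 100 bases long, and by the default settings of the counting tool a read that maps to several places is not counted. Outside its own locus, Fth1 had 3 copies over at least 90% of its length on the assembled chromosomes, at 80.4% to 88.0% identity. Ftl1 had 20 such copies on 11 chromosomes, of which 5 were at least 95% and 3 at least 99% identical to the mRNA. The closest, on chromosome 13 at Ftl1-ps1, was 99.6% identical over 922 aligned bases.

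**Figure D2:**
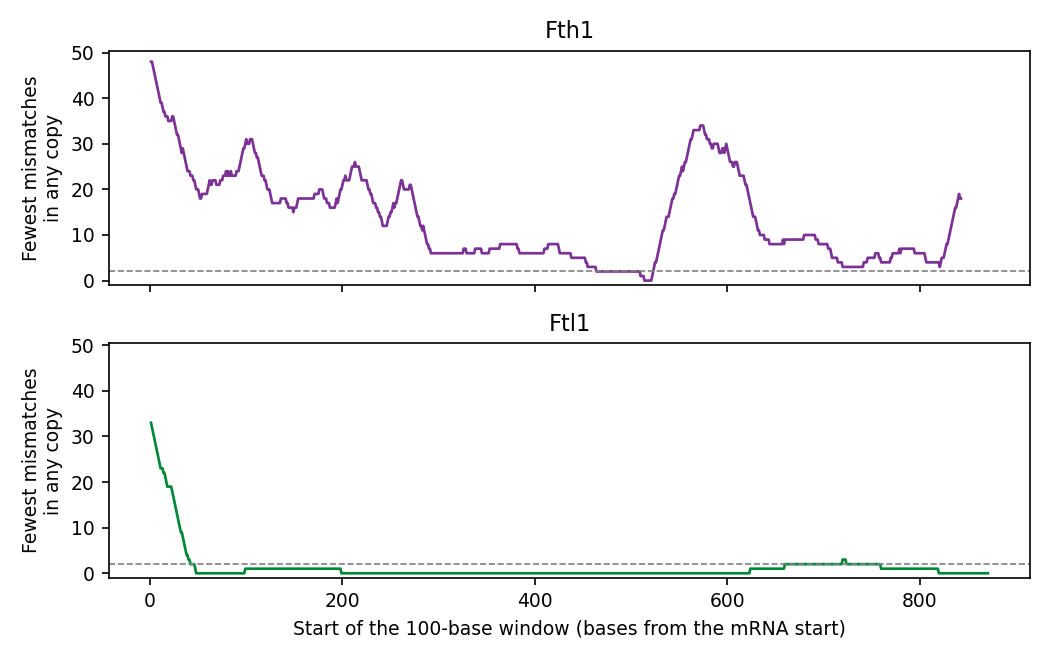
Fewest mismatches between each 100-base window of the mRNA and any ungapped copy elsewhere in the genome (vertical axis, bases) against the start of the window in bases from the mRNA start, for Fth1 (top) and Ftl1 (bottom), with a dashed line at 2 mismatches. The Fth1 line stays above 2 over most of its length, with a median of 9, while the Ftl1 line has a median of 0.

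Of the 843 windows of 100 bases in the Fth1 mRNA, 8 (0.949%) occurred without a mismatch elsewhere in the genome. Of the 871 windows of Ftl1, 528 (60.6%) did. Windows with at most 2 mismatches to a copy made up 7.12% of Fth1 and 94.8% of Ftl1, which left 783 and 45 windows. In the last 300 bases, towards the poly(A) tail, an identical copy existed for 0 of 201 windows of Fth1 and 52 of 201 windows of Ftl1. Divided by the number of windows without an identical copy, the UMIs gave a ratio of Fth1 to Ftl1 of 27.1, and divided by the windows with more than 2 mismatches to every copy a ratio of 3.79. Both scales were chosen after seeing the data. They weigh all windows of the mRNA alike, although the cDNA was primed from the poly(A) tail. Where along the mRNAs the counted reads lay was not examined. The part of these copies in the low counts of Ftl1 was not tested.

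Section by section, the share of UMIs from Fth1 was smaller in DG than in CA1. The DG libraries had 89.4, 61.2 and 76.2 Fth1 UMIs per 10000 UMIs in sections 1, 2 and 3. The CA1 libraries had 164.6, 91.4 and 92.5 per 10000. The lowest CA1 library (91.4) and the highest DG library (89.4) were 1.97 per 10000 apart, so the regions did not overlap, by a margin smaller than the counting interval of either library. Section 1 held the highest share of both regions, and its CA1 library stood above all others.

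**Figure D3:**
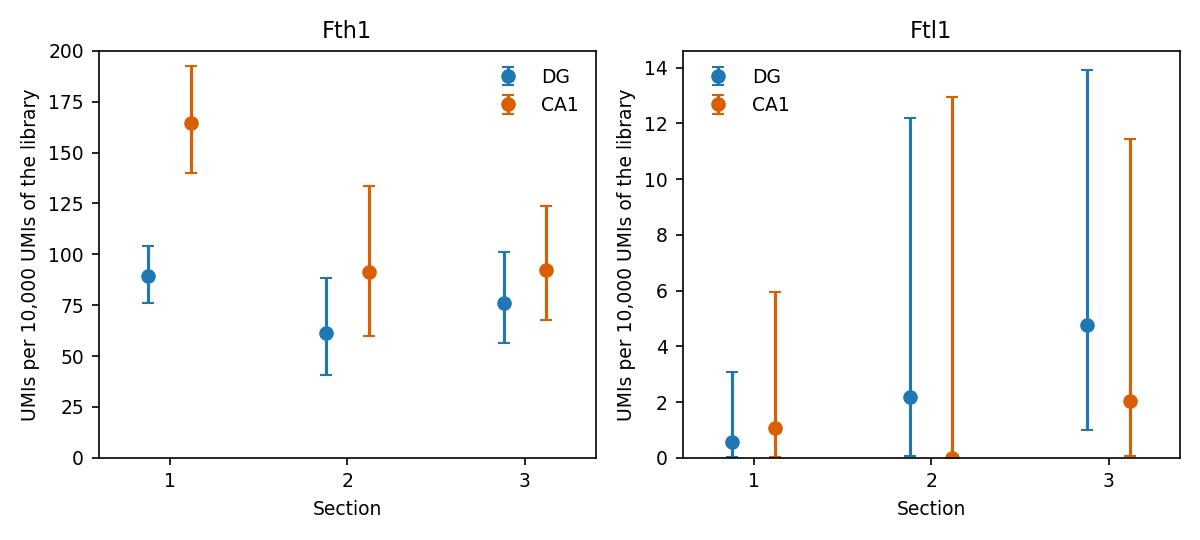
UMIs per 10,000 UMIs of the library for Fth1 (left) and Ftl1 (right) by section, in the DG (blue) and the CA1 (orange). Each point is 1 library and each bar its exact binomial 95% interval. Fth1 lies lower in the DG in all 3 sections, most clearly in section 1 (89.4 against 164.6), and the Ftl1 intervals overlap throughout.

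Means were 75.6 ± 14.1 per 10000 (SD, n = 3) in the DG and 116.2 ± 41.9 (SD, n = 3) in the CA1. The ratio of DG to CA1 was 0.543 in section 1, with an exact 95% counting interval of 0.433 to 0.682. It was 0.670 (0.379 to 1.19) in section 2 and 0.824 (0.537 to 1.27) in section 3, and the intervals of these sections included equal shares. In edgeR's quasi-likelihood test, the log2 fold change of Fth1 was -0.52 ± 0.24 (SE, 3 libraries a region), with an unadjusted p of 0.0331 and an adjusted p of 0.650. The difference did not pass the threshold of 0.05. An exact two-sided permutation test of the log2 shares, which ignored the pairing by section, gave p = 0.1. That is the smallest p that 3 unpaired libraries against 3 allow.

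The test covered 43 genes with enough UMIs, and 0 of them (0%) passed at an adjusted p under 0.05. At an unadjusted p under 0.05 the fit listed 3 (6.98%), and DESeq2 called 0 genes at either level. Fth1 had the second smallest p of the 43, after Grin2b. A share lower in the DG in all 3 sections was found for 16 of the 43 genes (37.2%), and a DG range wholly below the CA1 range for 4 (9.30%). The median log2 fold change of the 43 genes was -0.02.

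**Figure D4:**
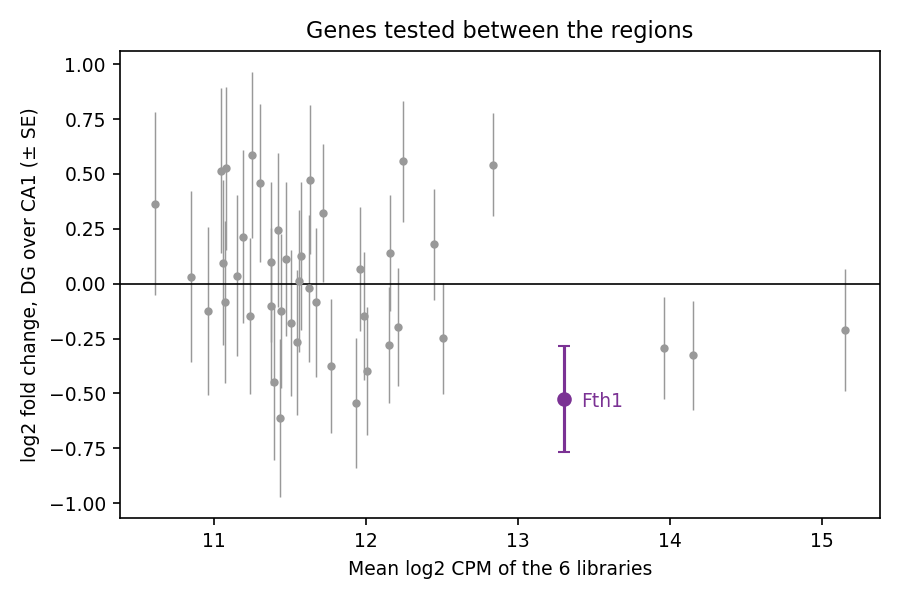
Log2 fold change of DG over CA1 (± SE) against the mean log2 CPM of the 6 libraries for the 43 genes tested by edgeR, with Fth1 in purple. Fth1, at -0.52 ± 0.24, had the third lowest fold change, and 0 of the 43 genes passed an adjusted p of 0.05.

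The size of the Fth1 fold change depended most on the libraries of section 1. Without the CA1 library of that section the log2 fold change was -0.02 (edgeR, adjusted p = 0.944), and without section 1 as a whole it was -0.24 (adjusted p = 0.998). Without the DG library of section 1 it was -0.79 (adjusted p = 0.0634). With only 1 library of section 1 left out, its partner from the section with the highest shares stayed in the unpaired fit. The values -0.02 and -0.79 therefore also carry the difference between sections. Leaving out DG replicate 2 gave -0.44, DG replicate 3 gave -0.51, CA1 replicate 2 gave -0.68 and CA1 replicate 3 gave -0.72. The sign was thus the same in each case, while the size ran from near 0 to beyond that of the full fit. Thinning every library to 2844 UMIs gave -0.33 on average, with Fth1 lower in the DG in 18 of 20 draws.

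Ftl1 had too few UMIs for a comparison of the regions. Its share was 0.556, 2.19 and 4.76 per 10000 in DG, against 1.07, 0 and 2.06 in CA1. The single library without a UMI, the CA1 of section 2, held 2844 UMIs in all, a depth at which a count of 0 allows up to 10.5 per 10000. In the other libraries too the count of 3 or fewer was at or under the limit that a count of 0 allows, so no fold is given. Ftl1 did not pass the filter on low counts, and in the fit without a filter its adjusted p was 0.778 (edgeR). The exact permutation test gave p = 0.9. A difference between the regions was not detectable at this depth.

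Between sections, Fth1 was highest in section 1. Both regions together had 115.1 UMIs of Fth1 per 10000 in section 1 (exact 95% interval 102.8 to 128.5), 72.8 in section 2 (54.7 to 94.9) and 83.3 in section 3 (67.3 to 102.0). With the region as a term, edgeR gave log2 fold changes of -0.78 for section 2 over section 1 and -0.59 for section 3 over section 1, with an unadjusted p of 0.00730 and an adjusted p of 0.105, which did not pass. Of the 43 genes, 0 (0%) passed the adjusted threshold and 8 (18.6%) had an unadjusted p under 0.05, with Fth1 next after Mbp and Gria1. DESeq2's likelihood ratio test called 0. Without a filter on low counts the edgeR fold changes were -1.60 and -1.16, and Fth1 was among 14 of 7507 genes that passed (adjusted p = 4.52e-14). These sizes went beyond the shares above: with the filter and scaling by total UMIs, the fold changes were -0.69 and -0.53 (edgeR, adjusted p = 0.273). In these fits the only replicates of a section were its DG and CA1 libraries, made from 1 piece of tissue. Their p-values set sections against the part of the region difference that varied between sections, not against repeats of a section. Section 1 was also the most deeply sequenced, with 27356 of 45935 UMIs. Ftl1 had 2, 1 and 4 UMIs in sections 1, 2 and 3, and its adjusted p was 0.994 in the fit without a filter.

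Across sections, the summed share of oligodendrocyte markers followed the same order as Fth1, with section 1 highest and section 2 lowest in both regions. Of 11 such markers, 8 were in the table and Mag, Aspa and Opalin were not, and 144 of their 174 UMIs came from Mbp, which encodes myelin basic protein. Their summed share was 46.1, 13.1 and 33.3 per 10000 for sections 1 to 3 in DG, against 43.8, 24.6 and 32.9 in CA1. Mbp alone had 36.7, 8.75 and 27.0 per 10000 in DG, against 40.6, 24.6 and 24.7 in CA1, so the order of the sums was mostly that of Mbp. In the CA1, sections 2 and 3 were nearly equal for Mbp, with 7 and 12 UMIs, and for Fth1 (91.4 and 92.5 per 10000). The oligodendrocyte sums leave out a marker of the list, were formed after the values were seen and were given no test. The order of the regions for the whole list is not given. The part of oligodendrocytes in the level of Fth1, between regions or between sections, was not tested.

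Markers of other cell types that the areas could hold were summed per library in the same way. Those of microglia, cells that hold ferritin, were nearly absent, with 4 of 12 markers listed, 8 UMIs in all and at most 4.37 per 10000. P2ry12, Tmem119 and Csf1r were not listed. Astrocyte markers, 7 of 10 listed, ran from 38.3 to 56.9 per 10000 in the DG and from 37.4 to 47.3 in the CA1, and were higher in the DG in each of the 3 sections, the reverse of Fth1. Neuron markers, 10 of 10 listed, ran from 286.7 to 395.9 in the DG and from 351.6 to 471.2 in the CA1. Their sum was lower in the DG in each section, but 725 of its 1572 UMIs came from the noncoding RNA Meg3. In both regions the astrocyte sum and the neuron sum were lowest in section 1, where Fth1 was highest. With libraries pooled by region, Meg3 had 134.4 per 10000 in the DG and 197.5 in the CA1. Camk2b, Grin2b, Nrgn and Map2 were higher in the DG by the same measure, and the rest were lower. Endothelial markers had 5 UMIs in all, choroid plexus markers 6 and erythroid markers 1. The labelled regions were only weakly marked: of 8 granule cell genes, 5 were listed and Prox1 was not, with 6.56 to 12.7 per 10000 in the DG and 5.34 to 10.5 in the CA1. The 7 CA1 pyramidal cell genes, all listed, had 2.22 to 4.37 per 10000 in the DG and 3.52 to 10.7 in the CA1.

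Among 46 other genes with at least 5 UMIs in each library, the profile of Atp2b1, a plasma membrane calcium pump, was most like that of Fth1 over the 6 libraries (Pearson r = 0.91 on log2 shares). Others with a similar profile were Pabpn1 (r = 0.73), Ppp3ca (0.62) and Brd9 (0.60), against a median of -0.12 over the 46 genes. Atp2b1 had 27.2, 21.9 and 19.1 UMIs per 10000 in DG, against 38.5, 24.6 and 24.7 in CA1. Like Fth1, it was highest in the CA1 of section 1. These correlations describe 6 libraries that share 3 sections and totals. For Ftl1 genes with a similar profile were Ntm (0.83), Slc1a2 (0.72), Son (0.68) and Arpp21 (0.67), but its own profile rested on counts of 0 to 3.

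The rest of the iron pathway was sparse. Of 65 genes of iron uptake, export, storage control, heme and iron-sulfur cluster lists, 20 were in the table, with 127 UMIs together, so that Fth1 alone had 3.64 times their sum. None of the 20 had enough UMIs to enter the test, and 16 had at most 10 UMIs. Uptake gave 3 of 13 genes and 21 UMIs. The transferrin receptor Tfrc and the iron transporter Slc11a2 were not listed.

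Export gave 2 of 8 genes, with 42 of 44 UMIs from App, the amyloid precursor protein, a protein of many other roles that also binds the exporter ferroportin. App had 12, 2 and 9 UMIs across sections 1 to 3 in DG, against 13, 1 and 5 for CA1. Storage control and turnover gave 2 of 8 genes, with 26 of 27 UMIs from Herc2, a ubiquitin ligase. For Herc2 the counts were 10, 3 and 8 in DG, against 1, 2 and 2 for CA1. The cargo receptor Ncoa4, which delivers ferritin for breakdown, and the iron regulatory proteins Aco1 and Ireb2 were not listed. Heme synthesis, transport and breakdown gave 8 of 18 genes and 17 UMIs, and mitochondrial iron and iron-sulfur clusters 5 of 18 genes and 18 UMIs. With these counts no iron gene other than Fth1 could be followed by region or section.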

How the data were processed

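Poly(A) RNA was measured in 6 BALI-Multiome libraries, a pair from each of 3 sections. Chromatin libraries from these sections were not used here. The authors made the deposited counts by trimming and splitting reads by full or partial barcode (cutadapt 4.1), mapping 100-base reads to mm10 with STAR 2.7.9a, assigning them to genes with featureCounts (Subread 2.0.3) under default options, which leave out multiply mapped reads and ignore strand, and collapsing 6-base UMIs per gene with umi_tools. With 4096 possible UMIs, random collisions lower high counts slightly. The deposited counts carry 1 added to every gene, and 1 was subtracted. Columns of normalised CPM, their means and SDs, and the authors' fold changes were not used.

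The 2 members and all lists were chosen with earlier results of these data known. Regions and sections were compared with edgeR 4.0.16 (quasi-likelihood, TMM, filterByExpr with a minimum count of 10, Benjamini-Hochberg adjustment over the genes tested, threshold 0.05) under R 4.3.3, after a check on simulated data. DESeq2 1.42.0 (with a constant dispersion trend) was an alternative. Depth was 2844 to 17999 UMIs. Exact tests and Clopper-Pearson intervals at 95% used scipy 1.17.1 and cover counting error only. The limit that a count of 0 allows was set at 3 UMIs per library. Correlations used log2 shares with 0.5 UMI added. Named genes were the members, their neighbours in mean share, the 5 genes of most similar profile and iron genes with at least 20 UMIs. Some genes of similar profile are not reported here, nor is 1 of the 12 oligodendrocyte markers, which was left out of the sum of that list, so the sum need not show the order of the regions that the whole list has. Others named, such as markers that were not listed, were chosen after their values were seen. Copies were found with BLAST 2.17.0 (E-value 1e-10) on GRCm38.p6. The DG and CA1 libraries with the same section number were made from 1 piece of tissue and are 1 sample by the labels, so the number pairs them. Across the 43 tested genes their deviations from the region means correlated at 0.53, 0.33 and 0.03 in sections 1, 2 and 3.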

Additional observations from a re-analysis of the deposited data

How the results depend on the processing

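With the section as a replicate block, Fth1 had a log2 fold change of -0.54 for DG over CA1 (edgeR, adjusted p = 0.316), and the pairing changed no call of a member. The fold change stayed negative in the 21 alternatives run and did not pass the threshold in the 19 of them that gave a test. It ran from -0.79 to -0.02, which are also the extremes when 1 library or section is left out. Scaling by total UMIs moved the median of the 43 genes from -0.02 to -0.14 and Fth1 to -0.64. The number of genes called between regions was 0 in 17 of 19 alternatives, which include each left-out library and section. It was 1 (Prkce) with the replicate block and no filter, and 0.1 on average after thinning. The fit of sections without a filter called 14 of 7507 genes and gave Fth1 -1.60 and -1.16 for sections 2 and 3 over section 1. With the filter and total UMIs these were -0.69 and -0.53. The fit of regions without a filter had a median log2 fold change of 0.46, against -0.02 for the 43 genes with it. The cause of the larger section values was not tested. The mean share of Ftl1 differed between regions by 1.46 UMIs per 10000, higher in the DG, and by 0.330 to 2.45 when a library or section was left out. This rested on 5 UMIs in the DG and 2 in the CA1, and in section 1 the share was lower in the DG (0.556 against 1.07). No direction is read from it. Ftl1 did not pass the filter, so the alternatives to the filtered test gave no value for it. Its adjusted p between sections ranged from 0.898 to 1.000. Fth1 made up 97.9% of ferritin UMIs on average and 97.1% to 98.8% without a section. Per window without an identical copy this was 95.1%, and per window with more than 2 mismatches to every copy 77.0%. Depth was the limit throughout: 45935 UMIs were spread over 7507 genes, and only 43 could be tested.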
